A study of Mus musculus with 22 samples.

Results

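Of the 16370 chromatin loops in the deposited loop table, 1170 were CRE loops of at most 500 kb that no structural loop encompassed or crossed. A cis-regulatory element (CRE) is a promoter or an enhancer, and the categories CRE loop, structural loop and dual-function loop are the authors' own. A CRE loop was counted as encompassed when both of its anchor midpoints lay within a structural loop on the same chromosome, ends included. It was counted as crossed when the anchors of a structural loop fell on different sides of one of its own anchors, 1 midpoint within the CRE loop and 1 beyond it. The 1170 free loops made up 32.4% of the 3613 CRE loops of at most 500 kb, and 7.15% of all loops. Of the other short CRE loops, 981 were crossed only, 917 were encompassed only and 545 were both. The rule used positions and categories, but no loop strength.

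The contacts came from in situ Hi-C, in which neighbouring pieces of chromatin are joined inside the nucleus and read by sequencing. All groups were G1E-ER4 cells, a subline of the GATA1-null mouse proerythroblast line G1E that carries an inducible GATA1 fusion, in which both CTCF alleles carried a C-terminal AID-mCherry degron. The cells also expressed the plant F-box protein OsTiR from a retrovirus, so that auxin leads to the degradation of CTCF. Prometaphase, early-G1 and mid-G1 cells carried OsTiR-IRES-GFP, whereas ana/telophase cells carried OsTiR-IRES-GFP-MD, so this stage came from a separately transduced population in both treatments. Cells were arrested in nocodazole at 200 ng/ml, kept with auxin (+auxin) or without it (-auxin), and collected by cell sorting 0, 30, 60 or 120 min after release. The sample protocol gives 25 min for ana/telophase. Each mid-G1 group had 3 libraries and every other group had 2, which makes 18 libraries in 8 groups. In the loop and boundary tables used here, the libraries of each group are merged, and every loop has 1 strength per group. Maps of single replicates were not analysed here, so the values carry no error between cultures and no test between treatments was run. The contacts behind single values are not in the tables used, and their counting precision is unknown.

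Structural loops have CTCF and cohesin at both anchors with a CRE at no more than 1 of them, and they form when cohesin extrudes DNA until CTCF stops it. CRE loops join promoters and enhancers and have CTCF and cohesin together at no more than 1 anchor. Dual-function loops carry CTCF, cohesin and CREs at both anchors. A structural anchor between an enhancer and its promoter can act as a barrier, and a structural loop around both can hold them within 1 domain, which is why loops in neither position are of interest when CTCF is removed.

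The promoters at the anchors of 4 free loops are printed because the account of single loops turns on them: 2 of the largest increases with auxin, the largest decrease, and the loop at Urod, which encodes a haem synthesis enzyme. Each sequence is the 250 bases before the GENCODE vM1 transcription start, read 5′ to 3′ on the strand of the gene from mm9. Capitals mark GC boxes, written CCGCCC or its reverse complement GGGCGG.
Cltc, chr11:86571068-86571317, minus strand: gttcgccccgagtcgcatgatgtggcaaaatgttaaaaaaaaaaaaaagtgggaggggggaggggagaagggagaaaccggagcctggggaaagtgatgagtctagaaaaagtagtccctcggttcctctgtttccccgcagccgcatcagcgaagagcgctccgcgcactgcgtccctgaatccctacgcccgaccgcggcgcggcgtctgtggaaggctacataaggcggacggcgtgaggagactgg
Prr11, chr11:86922211-86922460, minus strand: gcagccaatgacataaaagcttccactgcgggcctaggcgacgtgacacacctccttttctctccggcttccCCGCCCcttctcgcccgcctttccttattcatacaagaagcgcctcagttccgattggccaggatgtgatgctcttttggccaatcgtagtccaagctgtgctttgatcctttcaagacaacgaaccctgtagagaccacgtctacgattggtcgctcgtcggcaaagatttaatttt
Mrpl41, chr2:24830619-24830868, minus strand: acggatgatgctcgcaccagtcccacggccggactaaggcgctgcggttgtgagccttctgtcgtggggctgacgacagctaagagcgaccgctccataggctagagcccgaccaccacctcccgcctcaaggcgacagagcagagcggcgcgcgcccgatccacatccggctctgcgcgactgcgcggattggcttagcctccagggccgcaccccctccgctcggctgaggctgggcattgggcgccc
Cobra1, chr2:25067010-25067259, minus strand: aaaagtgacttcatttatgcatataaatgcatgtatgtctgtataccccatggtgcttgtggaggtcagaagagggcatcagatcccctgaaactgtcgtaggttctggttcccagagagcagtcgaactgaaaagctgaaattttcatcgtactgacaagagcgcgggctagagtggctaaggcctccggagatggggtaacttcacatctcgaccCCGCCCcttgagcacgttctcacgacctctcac
Adcy7, chr8:90796052-90796301, plus strand: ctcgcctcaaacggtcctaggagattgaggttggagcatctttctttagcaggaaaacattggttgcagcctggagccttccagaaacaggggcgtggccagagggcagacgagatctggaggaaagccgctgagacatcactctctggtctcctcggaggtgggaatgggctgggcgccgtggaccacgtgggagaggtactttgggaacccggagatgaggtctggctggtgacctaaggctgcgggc
Brd7, chr8:90886094-90886343, minus strand: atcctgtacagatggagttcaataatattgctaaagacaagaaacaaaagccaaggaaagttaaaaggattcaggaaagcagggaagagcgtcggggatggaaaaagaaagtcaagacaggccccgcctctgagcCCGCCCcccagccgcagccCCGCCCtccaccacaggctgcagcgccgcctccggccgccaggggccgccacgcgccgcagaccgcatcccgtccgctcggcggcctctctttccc
Mutyh, chr4:116480078-116480327, plus strand: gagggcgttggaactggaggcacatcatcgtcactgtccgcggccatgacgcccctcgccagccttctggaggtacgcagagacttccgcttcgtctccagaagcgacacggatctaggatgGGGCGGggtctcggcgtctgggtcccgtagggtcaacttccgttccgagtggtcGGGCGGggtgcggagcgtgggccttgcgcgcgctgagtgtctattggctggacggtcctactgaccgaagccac
Urod, chr4:116667019-116667268, minus strand: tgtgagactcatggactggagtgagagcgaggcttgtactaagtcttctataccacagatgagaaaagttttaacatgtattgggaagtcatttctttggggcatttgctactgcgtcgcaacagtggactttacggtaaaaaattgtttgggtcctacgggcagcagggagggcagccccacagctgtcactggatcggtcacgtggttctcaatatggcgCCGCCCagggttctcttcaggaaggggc

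Cltc and Prr11 face each other across 1 loop, Mrpl41 and Cobra1 across another, Adcy7 and Brd7 across a further one, and Mutyh and Urod across the last. A GC box stood in 5 of the 8 promoters, whereas 39.6% of 22375 promoters of this length held one. The GATA motifs AGATAA and TGATAA, and the CTCF core motif of 12 bases, were searched on both strands and had 0 matches in the 8. Of all 22375 promoters, 15.5% held a GATA motif and 2.20% the CTCF core.

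The free loops were short, with a median size of 150 kb (quartiles 90 and 250 kb), and the smallest spanned 70 kb. Their summits were called in 10 kb bins for 1000 loops and in 25 kb bins for 170. The 2340 anchors fell on 2008 distinct midpoints, and 395 loops shared no anchor, to within 15 kb, with another free loop. The label holds only for the relations named in the rule. A smaller structural loop lay nested inside 156 of the free loops, and the nearest structural anchor was at a median of 90 kb from an anchor (quartiles 30 and 330 kb). Dual-function loops, which also carry CTCF, were not part of the rule. They crossed only 194 free loops (16.6%), encompassed only 258 (22.1%), did both for 211 (18.0%) and did neither for 507 (43.3%). In all, 425 free loops (36.3%, 95% Wilson interval 33.6 to 39.1%) were clear of both kinds of CTCF loop, nested ones included. The Wilson intervals here cover counting error only.

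Loop strength is the ratio of observed contacts to those expected from the local surroundings, where 1 means no enrichment. From prometaphase over ana/telophase and early-G1 to mid-G1, the median strength of the free loops without auxin was 1.08, 1.5, 1.61 and 1.57. With auxin the medians were 1.07, 1.47, 1.59 and 1.53. The distributions overlapped over most of their range at every stage. Measured by the mean, 82.6% of the rise from prometaphase to mid-G1 was in place by ana/telophase without auxin and 87.2% with auxin. Without auxin, 276 free loops peaked in ana/telophase (23.6%), while 496 peaked in early-G1 (42.4%) and 398 in mid-G1 (34.0%). Crossed loops were strongest in ana/telophase more often (35.6%), and encompassed loops more often in mid-G1 (44.9%). The free loops lay between both. Over all CRE loops of at most 500 kb the shares were near those of the free loops, at 24.7%, 42.4% and 32.9%. Over all loops they were 10.4%, 31.4% and 58.3%.

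**Figure D1:**
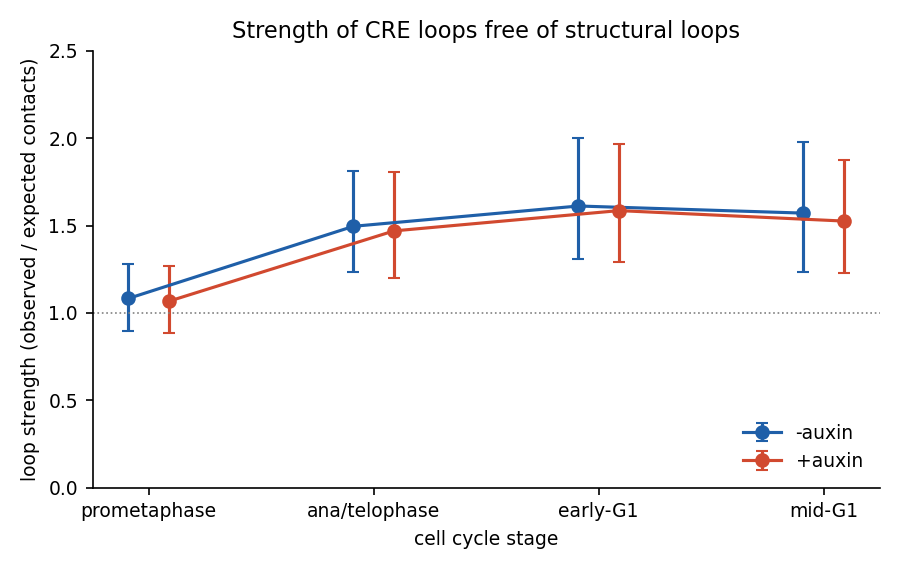
Loop strength (observed over expected contacts, linear axis) of the 1170 free CRE loops at the 4 stages; points are medians over loops and bars their quartiles, and the dotted line marks no enrichment. The medians with and without auxin lie within 0.05 of each other at every stage and rise from about 1.1 in prometaphase to about 1.6 in early-G1.

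Across the free loops, removal of CTCF left the median strength nearly where it was. In prometaphase the median log2(+auxin / -auxin) was -0.02 (SD over the medians of chromosomes 0.06). After mitosis it was -0.03 at the ana/telophase stage (SD 0.04), -0.01 at early-G1 (SD 0.06) and -0.03 at mid-G1 (SD 0.06). Every one of these medians was smaller than the spread between chromosomes. Crossed loops reached 0.21 in mid-G1 (SD 0.10), encompassed loops -0.17 (SD 0.05) and loops that were both 0.09 (SD 0.10). In mid-G1, 55.2% of free loops were weaker with auxin, against 30.4% of crossed and 72.6% of encompassed loops. The mid-G1 medians of structural and dual-function loops were -0.87 and -0.44, and that of all loops together was -0.38. All CRE loops had -0.02 and those of at most 500 kb -0.01, so a median near 0 was not particular to the free loops. Relative to the median of all loops, which include the structural and dual-function loops, the free loops stood at 0.34. Relative to the same loop in prometaphase their median was -0.03, so the sign depends on the reference chosen.

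**Figure D2:**
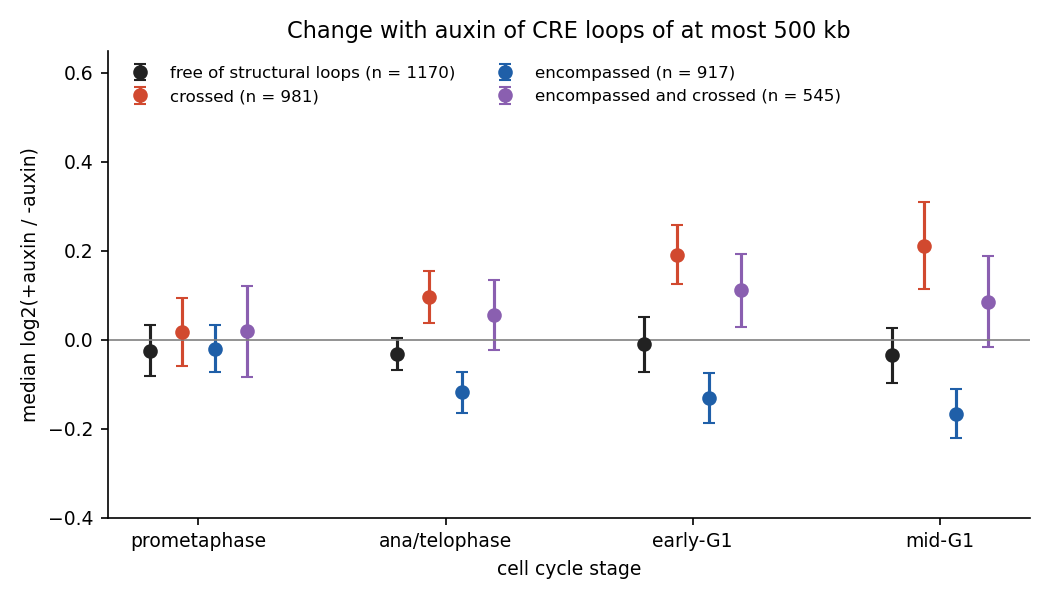
Median log2(+auxin / -auxin) of loop strength at the 4 stages for the 4 positional classes of CRE loops of at most 500 kb; bars are the SD over the medians of chromosomes with at least 10 loops of the class. The free loops stay at -0.03 to -0.01 after mitosis, while crossed loops reach 0.21 and encompassed loops -0.17 by mid-G1.

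Free loops lay between crossed and encompassed loops in every size bin, but the distances changed with size. In 5 size bins, with upper ends at 100, 150, 200, 300 and 500 kb, the median mid-G1 change of free loops was -0.08, -0.01, -0.03, 0.01 and -0.03. That of crossed loops was smaller in each larger bin, at 0.40, 0.30, 0.25, 0.19 and 0.12. That of encompassed loops was further below 0 in each larger bin, at -0.13, -0.17, -0.21, -0.24 and -0.25. Loops that were both had 0.17, 0.15, 0.13, 0.07 and -0.03, above the free loops in the 4 smaller bins but not in the largest. Free loops were thus closer to crossed loops, and farther from encompassed ones, among the long loops than among the short. At the upper limit of the rule, the 29 free loops of 480 to 500 kb had a median change of -0.05. The 12 CRE loops of 510 to 525 kb that met the positional rule but not the size limit had -0.08.

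The authors' calls gave a different impression from the strengths. A loop is taken here as lost when it was called in some stage only without auxin, as gained when only with auxin, and as retained when in both. By these calls 530 free loops were lost (45.3%, 42.5 to 48.2%), 339 retained (29.0%) and 301 gained (25.7%). Over all 4642 CRE loops the shares were 44.5% lost, 25.2% retained and 30.4% gained, and over all loops 71.1%, 14.4% and 14.6%. The lost share of the free loops was thus near that of all CRE loops. Of the crossed loops 49.6% were gained, and of the encompassed loops 12.2%. Yet at mid-G1 the lost free loops still had a median of 1.39 with auxin against 1.67 without, and the gained ones 1.54 against 1.26. The calls and these strengths come from the same maps. When presence was set instead by a strength of at least 1.5 in a post-mitotic map, free loops present in neither treatment were left out. Of the rest, 13.8% were lost, 73.0% retained and 13.2% gained, so these shares have a smaller base than those by call. Among the 339 retained loops, 173 were first called at the same stage in both treatments, 110 later with auxin and 56 earlier.

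Single free loops varied more than their median. The mid-G1 change had an SD of 0.39 over loops and ran from -1.41 to 1.29. With a threshold of 0.5 on the log2 scale, 95 free loops were stronger with auxin in mid-G1 (8.12%), where 4.06% of all loops were. By the same threshold 121 were weaker (10.3%), where 42% of all loops were. In prometaphase, before most loops had formed, 110 were stronger and 115 weaker, and the shares of all loops there were 9.05% and 12.9%. At the ana/telophase stage 46 were stronger (3.93%) and 70 weaker (5.98%), where 1.61% and 25.4% of all loops were. At early-G1 82 were stronger (7.01%) and 103 weaker (8.80%), against 3.84% and 36.5% of all loops.

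The sign of the change was shared by the later stages but not by prometaphase. Early-G1 and mid-G1 changes correlated across the 1170 loops with a Pearson r of 0.77 and a Spearman rho of 0.73, and ana/telophase and mid-G1 with 0.59 and 0.57. Prometaphase and mid-G1 gave 0.10 and 0.11. These are descriptions across loops, which are not independent, and the maps of different stages come from different libraries. At all 3 post-mitotic stages 297 loops were stronger with auxin (25.4%) and 383 weaker (32.7%), together 58.1%. The shares were 12.5% stronger and 61.4% weaker over all loops, and 31.0% and 30.7% over CRE loops of at most 500 kb. Of the 95 loops past the threshold upwards in mid-G1, 84 were stronger at all 3 stages, and of the 121 past it downwards, 109 were weaker at all 3.

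**Figure D3:**
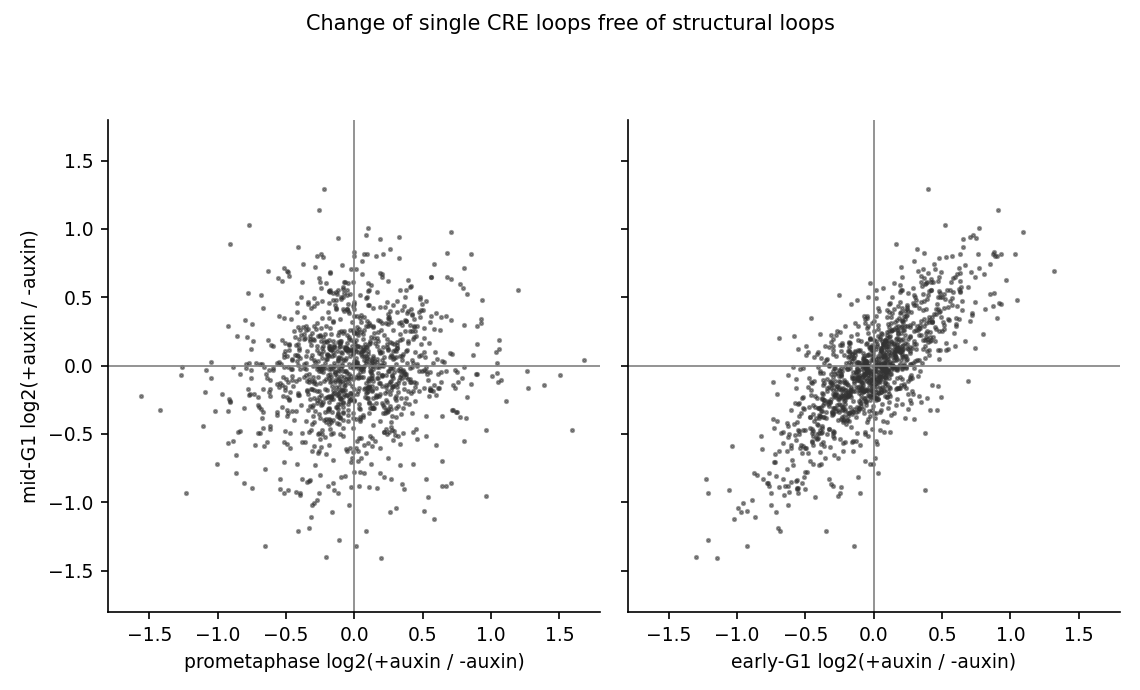
Each point is 1 of the 1170 free CRE loops; the vertical axis is its mid-G1 log2(+auxin / -auxin) and the horizontal axis the same change in prometaphase (left) or early-G1 (right). The points form a round cloud against prometaphase (r = 0.10) and a rising band against early-G1 (r = 0.77).

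Splitting the free loops by their relation to dual-function loops separated them in the same order as structural loops separate CRE loops. The 194 crossed by dual-function loops had a median mid-G1 change of 0.12 (SD 0.16 over chromosomes), from a strength of 1.45 without auxin to 1.57 with it. The 258 encompassed ones had -0.16 (SD 0.10), from 1.57 to 1.42. The 507 in neither position had -0.03 (SD 0.07), and the 211 in both had 0.02 (SD 0.17). The crossed median was within the spread between chromosomes, while the encompassed one was beyond it. In prometaphase the 4 medians lay between -0.04 and 0.00. In the 5 size bins the crossed loops were positive throughout, from 0.04 to 0.22, and the encompassed ones negative throughout, from -0.26 to -0.11. Those in both positions had 0.07, 0.01, 0.11 and 0.15 in the 4 smaller bins but -0.22 in the largest, and 0.08 over all sizes of at most 300 kb. By the authors' calls, 45.9% of the crossed loops were gained, 12.4% of the encompassed and 20.5% of those in neither position, where 30.4% of all CRE loops and 14.6% of all loops were. Stronger by 0.5 or more in mid-G1 were 17.0% of the crossed and 1.55% of the encompassed loops, where 4.06% of all loops were. Weaker by as much were 11.3% of the crossed and 14.3% of the encompassed loops, where 42% of all loops were. Among the 425 loops clear of both kinds of CTCF loop, 3.29% were stronger and 5.88% weaker by that much, and the median change was -0.03 (SD 0.07).

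The free loops also differed by what their anchors held. A promoter, taken as a protein-coding transcription start in the 30 kb window around an anchor midpoint, stood at both anchors of 698 free loops (59.7%, 56.8 to 62.4%), at 1 anchor of 355 (30.3%) and at neither of 117 (10.0%). Crossed loops joined promoters at both anchors in 64.7% of cases and encompassed loops in 31.3%. Free loops with promoters at both anchors had a median mid-G1 change of 0.02 (SD 0.08), from 1.54 to 1.57. Those with a promoter at 1 anchor had -0.08 (SD 0.10), from 1.63 to 1.49. Those without had -0.18 (SD 0.12 over the 2 chromosomes with at least 10 such loops), from 1.66 to 1.44, and 75.2% of them were weaker with auxin, against 48.6% of the loops with promoters at both. None of the 117 loops without a promoter was stronger by 0.5 or more, and 26 were weaker by that much (22.2%), where 4.06% of all loops were stronger and 42% weaker. Of the 698 with promoters at both, 74 were stronger and 55 weaker. Loops with promoters at both anchors had the highest median in the other classes too, so this was not particular to the free loops. With promoters at both anchors, at 1 and at neither, crossed loops had 0.25, 0.17 and 0.12. Encompassed loops had -0.12, -0.19 and -0.18, and loops that were both had 0.17, 0.01 and 0.07.

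Both splits were seen together. Among the 507 loops neither crossed nor encompassed by dual-function loops the medians were -0.01 with promoters at both anchors, -0.04 with 1 and -0.10 with none (307, 152 and 48 loops). Among the loops encompassed by dual-function loops they were -0.12, -0.18 and -0.31, and among those both encompassed and crossed 0.13, -0.12 and -0.35. The crossed loops did not follow that order, with 0.12, 0.14 and -0.02, the last from 12 loops. The medians were thus farthest apart among loops that were both encompassed and crossed.

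**Figure D4:**
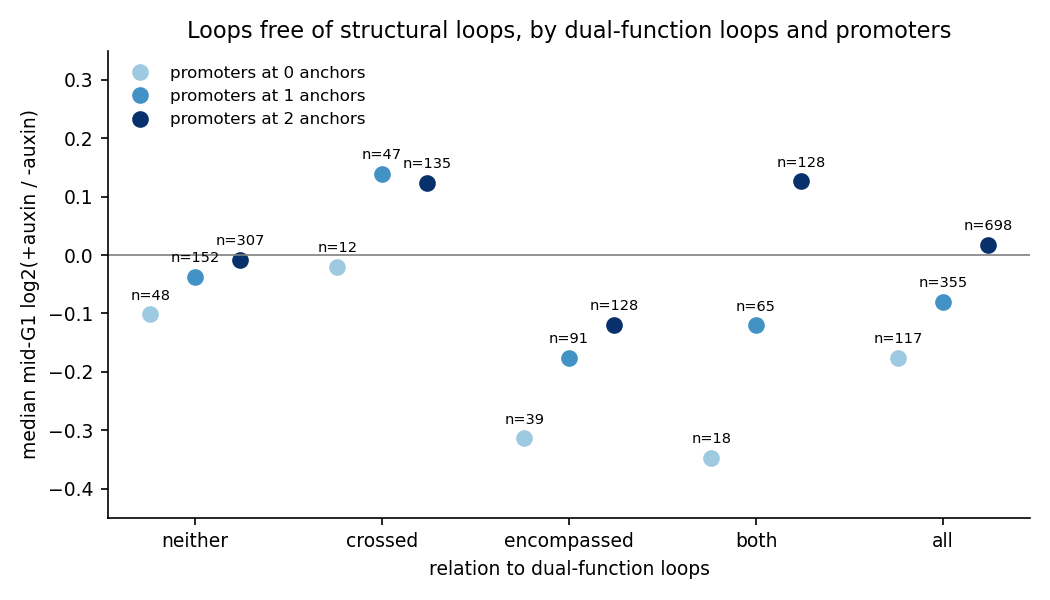
Median mid-G1 log2(+auxin / -auxin) of the free CRE loops, split by their relation to dual-function loops (horizontal axis) and by the number of anchors with a promoter (shade); the number of loops stands over each point. Loops without a promoter lie lowest in every column, down to -0.35, and loops crossed by dual-function loops with a promoter at 1 or both anchors lie at 0.12 to 0.14.

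Many anchors of free loops lay at domain boundaries. A deposited boundary fell within 30 kb of an anchor for 729 free loops (62.3%), but inside only 214 (18.3%), against 40.7% of crossed and 5.02% of encompassed loops. The 580 boundaries at anchors of free loops had a median boundary strength ΔIS, the height of the insulation change at the boundary, of 0.873 without auxin and 0.619 with auxin in mid-G1. The median log2 change was -0.42 (SD 0.14), and 78.6% of them were weaker. Over all 6376 boundaries the change was -0.48 and 75.5% were weaker, so the share at these anchors was near that of all boundaries. The boundaries at these anchors were thus lower with auxin at the median, while the loops were near 0. Free loops with boundaries at no anchor changed by -0.01 (441 loops), those with 1 by -0.04 (584) and those with a boundary at both by -0.11 (145 loops). A structural anchor lay within 20 kb of both anchors in only 13 free loops, and their median was -0.46. In 208 it lay near 1 anchor, with -0.07, and in 949 near none, with -0.02.

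The CTCF core motif stood, on either strand, in the 30 kb window of 90.4% of the free loops' anchors. It stood in 94.4% of structural and 96.3% of dual-function anchors, and in 69.7% of windows of that length across the genome. In 10 kb windows the shares were 60.3%, 70.1%, 74.0% and 37.8%. Among the other CRE loops of at most 500 kb, the 30 kb shares were 90.7% (crossed), 86.4% (encompassed) and 87.2% (both). Their 10 kb shares were 61.2%, 56.2% and 54.8%. The median mid-G1 change was -0.04 with matches at both anchors (965 loops), -0.03 with a match at 1 (186) and 0.07 with none (19). A match to these letters is not a bound site.

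The largest increases with auxin were mostly at loops that joined promoters, and 59.7% of all free loops had promoters at both anchors. The named loops were picked by their change with auxin, so their values describe and do not test. The loop from Mrpl41 and Pnpla7 to Cobra1 on chromosome 2 of mm9 joined 24830001-24840000 with 25060001-25070000. Mrpl41 encodes a protein of the mitochondrial ribosome, and Cobra1 a subunit of the negative elongation factor that pauses RNA polymerase II. Its strength without auxin was 1.14, 1.30, 1.24 and 1.09 from prometaphase to mid-G1, and with auxin 0.956, 2.12, 2.33 and 2.40. It stayed low in all 4 maps without auxin and was higher with auxin at each stage after mitosis, with a mid-G1 log2 change of 1.14. A second loop to the same Cobra1 anchor, from Wdr85, went from 1.24 to 2.40 in mid-G1 and is not independent of it. The loop from Mrpl41 was both encompassed and crossed by dual-function loops, and that from Wdr85 was encompassed but not crossed.

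The loop between Cltc, which encodes the clathrin heavy chain, and Prr11 joined 86550001-86575000 and 86900001-86925000 on chromosome 11. It measured 1.23, 1.41, 1.14 and 0.974 without auxin and 1.32, 1.69, 1.95 and 1.96 with it, a mid-G1 change of 1.01. The treatments were close in prometaphase, differed by 0.25 on the log2 scale in ana/telophase and lay further apart from early-G1 on. No dual-function loop crossed or encompassed this loop, but 2 were nested in it. The loop from Tial1, an RNA-binding protein, to Mcmbp and Sec23ip on chromosome 7 went from 1.03 to 1.97 in mid-G1, and 4 dual-function loops crossed it. The largest increase of all, 1.29, was between an exon of the deacetylase gene Sirt1 and Ctnna3 on chromosome 10, from 0.659 to 1.61, and no dual-function loop touched it. With 0.5 added to both strengths that increase was 0.87.

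The largest decrease was at the loop that joined Adcy7, an adenylate cyclase gene, with Brd7, which encodes a bromodomain subunit of a chromatin remodelling complex. Its anchors were 90790001-90800000 and 90880001-90890000 on chromosome 8. Without auxin it measured 0.982, 1.64, 1.70 and 1.65, and with auxin 1.12, 1.22, 0.767 and 0.623. It was above its prometaphase strength without auxin and below it with auxin from early-G1 on, for a mid-G1 change of -1.41, or -0.94 with 0.5 added to both strengths. A structural anchor lay 20 kb from it, although no structural loop crossed it. The loop from Trim25, a ubiquitin ligase gene, to Dgke on chromosome 11 went from 1.58 to 0.651. No dual-function loop crossed or encompassed this loop or the one from Adcy7 to Brd7.

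Other large decreases were at loops without a promoter at either anchor. A loop on chromosome 3 ending in an exon of Mccc1 went from 2.93 to 1.11 in mid-G1. A loop on chromosome 14 ending in an exon of Rb1, the retinoblastoma gene, went from 2.58 to 1.03. A loop of 500 kb on chromosome 10 ending in an intron of the kinase gene Sgk1 went from 3.18 to 1.51. Dual-function loops encompassed all of them and also crossed the loop at Sgk1. The loop at Rb1 had a structural anchor at its own anchor midpoint.

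**Figure D5:**
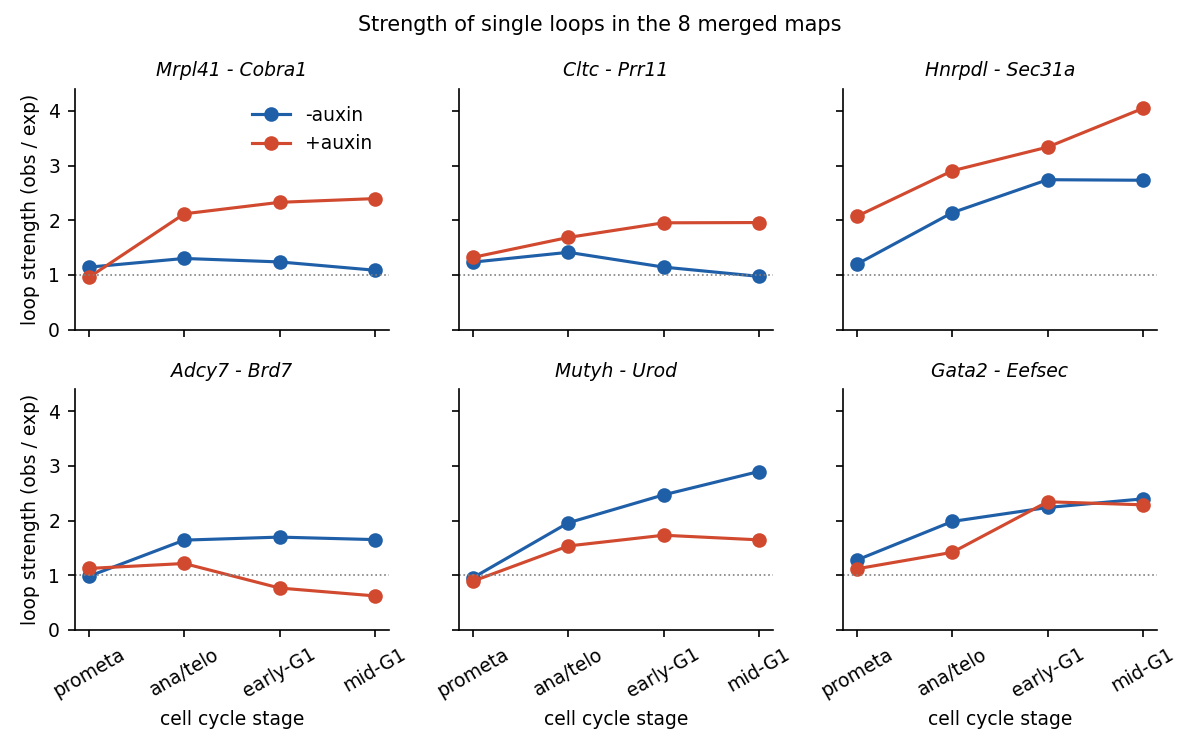
Strength (observed over expected contacts, linear axis) of 6 named free CRE loops in the 8 merged maps, 1 value per map; blue is -auxin, red +auxin, and the dotted line marks no enrichment. The loops at Cobra1 and Prr11 lie near 1 in mid-G1 without auxin and near 2 or above with it, the loops at Brd7 and Urod go the other way, and the loop at Gata2 ends at 2.40 and 2.29.

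The strongest free loop stood apart from the rest. It joined an exon of D5Ertd579e with a site without a protein-coding gene on chromosome 5, and measured 4.76, 6.49, 7.50 and 7.83 without auxin and 5.89, 5.34, 6.84 and 6.04 with it. It was thus above every other free loop in mid-G1 without auxin and already strong in prometaphase, where the median free loop stood at 1.08. It was called lost, although its mid-G1 strength with auxin was 6.04. The next strongest lay at Ang and Rnase4, 2 ribonuclease genes, on chromosome 14 (5.19 and 3.08 in mid-G1 without and with auxin), at Tshz1 and Zadh2 (5.02 and 3.41), between Golga5 and Cpsf2 on chromosome 12 (4.01 and 2.23), and between the splicing factor genes Zranb2 and Srsf11 on chromosome 3 (3.99 and 3.76). All of them were weaker with auxin in mid-G1, and they had been chosen for their strength without it.

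Some free loops met at shared anchors. The loop between Ifnar2, an interferon receptor gene, and Gart and Son on chromosome 16 shared anchors with 8 other free loops and went from 2.74 to 2.20 in mid-G1. The loop between Hnrpdl and Enoph1 and Sec31a on chromosome 5 shared anchors with 6. It measured 1.20, 2.14, 2.74 and 2.73 without auxin and 2.07, 2.90, 3.34 and 4.05 with it. It was called lost, while its strength was higher with auxin in all 4 maps, prometaphase included. The 204 loops with 3 or more partners and the 395 with none both had a median mid-G1 change of -0.03.

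Some free loops were strongest in ana/telophase and faded without auxin. The loop from Tcfap2a to Tmem14c, a mitochondrial membrane protein gene needed for haem synthesis, had an ana/telophase strength of 2.04 and a mid-G1 strength of 1.06 without auxin, and 2.12 and 1.88 with it. In prometaphase it already stood at 2.10 with auxin and 1.16 without. The loop from Crlf2, a cytokine receptor gene, went from 2.92 to 1.58 without auxin and from 2.60 to 2.41 with it, with an early-G1 strength of 1.57. The loop between introns of Zfpm1 and Fam38a faded in both treatments, from 2.13 to 1.22 and from 2.26 to 1.56. These 3 were chosen for the largest decreases from ana/telophase to mid-G1 without auxin among free loops with an ana/telophase strength of at least 1.5.

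Of 132 annotated genes on 6 lists, 23 had a transcription start at an anchor of 43 free loops. Their median mid-G1 change was 0.05, with 7 stronger and 2 weaker by 0.5 or more, where 8.12% and 10.3% of all free loops were. By call 9 of the 43 were lost, 22 retained and 12 gained, while the shares over all free loops were 45.3%, 29.0% and 25.7%. The 9 loops at erythroid transcription factor genes (Bcl11a, Gata2, Mafg, Myb and Zfpm1) had a median of 0.12, with 6 retained, 3 gained and 0 lost. Gata2, Myb and Zfpm1 each had more than 1 of these loops, so the 9 are not independent. Of the 3 gained loops, the one at Mafg had a strength of at most 0.983 in any map, and the one at Myb at most 0.954. The lists for haem and iron genes (6 loops) and for stress response genes (7 loops) had medians of 0.12 each, and the G1 cell cycle list (11 loops) had 0.05. The list of cytokine receptors and their signalling genes (8 loops) had -0.14.

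The loop from Gata2, a transcription factor of early haematopoietic cells, to Eefsec on chromosome 6 joined 88150001-88160000 with 88380001-88390000. It measured 1.28, 1.98, 2.24 and 2.40 without auxin and 1.12, 1.42, 2.34 and 2.29 with it. The treatments differed most in ana/telophase and were alike later. A second loop from the same Gata2 anchor, to Sec61a1 at 88450001-88460000, measured 1.69, 1.67, 1.5 and 1.63 without auxin and 1.07, 1.85, 2.14 and 2.18 with it. It was stronger with auxin in mid-G1, by 0.42 on the log2 scale. The loop from Myb, a factor of proliferating progenitors, to the neighbouring gene Hbs1l measured 1.09, 1.97, 1.98 and 1.74 without auxin and 1.49, 1.87, 2.35 and 2.13 with it. The gene for the GATA1 cofactor FOG-1, Zfpm1, had a free loop to Banp at 1.90 and 1.92 in mid-G1. It had another, of 220 kb into an intron of Gm20388, at 0.94 without auxin and 1.81 with it, and that loop was called gained.

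Haem genes went both ways. The loop from Mutyh and Toe1 to Urod on chromosome 4 (116480001-116490000 and 116660001-116670000) measured 0.955, 1.96, 2.47 and 2.90 without auxin and 0.892, 1.54, 1.73 and 1.65 with it. It was weaker with auxin at every stage, by -0.81 in mid-G1, and a structural anchor coincided with its anchor midpoint. Dual-function loops both encompassed and crossed it. The loop from Rnf183 to Alad, the enzyme that makes porphobilinogen, held 2.16 and 2.11 in mid-G1. A loop of 70 kb from Incenp to Fth1, the ferritin heavy chain, went from 0.689 to 1.22. Loops at the red cell membrane genes Rhag, Rhd and Add2 changed by 0.53, 0.98 and 0.32. The loop at Rhd stayed under 1 in all 8 maps, at most 0.935, so it was called without a strength above the local expectation.

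Among cytokine and cell cycle genes, the loop from Psmd6 to Il3ra, a subunit of the interleukin-3 receptor, went from 3.01 to 1.75 in mid-G1 but from 1.51 to 2.34 in ana/telophase, without and with auxin. The 3 named loops at Zfp36l1, an mRNA decay factor gene, share that anchor region and measured 3.30, 2.46 and 2.04 without auxin and 2.49, 2.39 and 1.96 with it. Socs2, a suppressor of cytokine signalling, had a loop to Cradd at 1.96 and 1.80. The loop from Cdk6, a G1 kinase gene, to Fam133b was called lost while its mid-G1 strength was 1.86 without auxin and 2.02 with it. A loop from Cdk4 to Ddit3, a stress response factor, went from 1.34 to 1.99.

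The free loops lay on all 20 chromosomes tested. They made up 58.3% of the short CRE loops on the X chromosome (49 loops) and 20.7% of those on chromosome 1 (64 loops), the ends of the range. The median mid-G1 change by chromosome ran from -0.17 on chromosome 19 to 0.10 on chromosome 2, and on the X chromosome it was -0.07.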

How the data were processed

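In situ Hi-C libraries were processed by the authors with Bowtie2 alignment to mm9, as their processing notes state, and replicates of each group were merged for the values used here. The authors called loops in 10 and 25 kb bins and boundaries in 10 kb bins. Some further loop calls were recovered by the authors with filters in single replicates. Maps of single replicates were not used here. Loop strength, as deposited, is the ratio between observed contacts and those expected from the surroundings, a mean of 9 pixels. The deposited boundary strength is a signal, ΔIS, that is never negative. Loop categories and stages of first detection are the authors' own. The 4 triptolide libraries were not used here.

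From these values, positional classes were computed by anchor midpoints, and log2(+auxin / -auxin) without a pseudocount; no free loop had a value of 0. Medians carry the SD over medians of chromosomes with at least 10 loops, and shares 95% Wilson intervals. Genes and sequences come from GENCODE vM1 and NCBIM37, which is mm9; all 16370 loops and 6376 boundaries lay within its chromosome lengths. Named loops were the 5 strongest; the 5 largest increases and 5 largest decreases among loops of the same sign at all 3 post-mitotic stages, with a prometaphase change under 0.3 and a strength of at least 1.5 in 1 treatment; the 3 with the largest decrease from ana/telophase to mid-G1 without auxin among those with an ana/telophase strength of at least 1.5; the 3 with most partners; and 10 at listed genes; those singled out beyond these were chosen after their values were seen. The loops and lists were chosen with earlier results of these data known, and the splits by dual-function loops and promoters after seeing the data. Geometry was tested on simulated loops. Alternatives covered the definition of a blocking loop, size, summit width, pseudocount, centring, thresholds and windows. Python 3.11.15, numpy 2.4.6, pandas 2.3.3 and matplotlib 3.10.9 were used.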

Additional observations from a re-analysis of the deposited data

How the results depend on the processing

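Of 141 recomputed values of the main results, 120 stayed within the limit set for them. The limit was the SD over chromosomes for medians, the Wilson interval for shares and a fixed factor for the number of free loops. Subtracting the prometaphase strength of each loop could not change its stage of highest strength, so those values could not move. With dual-function loops also counted as blocking, 507 loops remained, of which 35.1% were retained, 20.5% gained, and 5.13% stronger and 6.71% weaker by 0.5 or more in mid-G1. Counting only structural loops of a mid-G1 strength of at least 2 left 1565 loops free, of which 28.9% were gained. Minus the median of all loops, the median change was 0.18, 0.30 and 0.34 in ana/telophase, early-G1 and mid-G1. Among free loops present by strength in at least 1 treatment, 13.8% were lost, 73.0% retained and 13.2% gained. At a log2 threshold of 0.3, 16.8% were stronger and 21.7% weaker, and at 1, 0.342% and 1.45%. Boundaries lay near an anchor for 49.1% of loops at 20 kb and 78.8% at 50 kb. Promoters stood at both anchors for 27.6% in 10 kb and 71.1% in 50 kb windows, and CTCF motifs in 60.3% of anchors in 10 kb windows. What lies behind the difference between calls and strengths was not tested. The alternatives for the splits by dual-function loops and by promoters were chosen after seeing the data, and with 50 kb windows the median for promoters at both anchors was -0.01. No paired analysis was possible because the loop and boundary tables used have no column for a single replicate. Maps of single replicates were not analysed here, so leaving out each replicate was not run. The contacts behind single values are unknown, so the precision of a change in 1 loop is unknown.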
